A study of Mus musculus with 8 samples.

Results

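The genes described here are 9 mouse genes of blood coagulation and fibrinolysis: F3, F5, F7, F10, F13a1, Plau, Plaur, Serpinb2 and Thbd. Their probes were found by name, as every noncontrol probe whose accession belongs to one of these genes, a rule that uses no measured value, although the list was drawn up with earlier results of these data known. They are 9 of 21154 genes named on the array and were read by 13 of 55681 noncontrol probes, with 2 probes each for F3, F5, F7 and F13a1 and 1 probe for each of the other 5 genes. With the brightest probe standing for each gene, they made up 9 of 22910 features tested. All 13 probes were well above background on all 8 arrays, and no spot of theirs was saturated or marked as an outlier. A log2 level is the log2 of a probe's signal minus the 75th percentile of its array, so that 0 is the brightness of that percentile. Levels of different probes are on different scales and are not compared with each other.

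The samples were adherent peritoneal macrophages taken at 8 weeks of age from male or female mice on a 129/C57Bl6 background, in 4 groups of 2 arrays. The groups were Fra-1lox/lox MxCre-/+ mice (Fra-1 knockout), their wild-type Fra-1lox/lox littermates (Fra-1 control), Fra-2lox/lox LysMCre-/+ mice (labelled Fra-2 knockout) and their wild-type Fra-2lox/lox littermates (Fra-2 control). Every animal thus carried floxed alleles of the gene concerned, and each knockout group also carried a Cre. Fra-1 and Fra-2, encoded by Fosl1 and Fosl2, are AP-1 transcription factors that bind DNA paired with Jun proteins. Mx Cre is switched on by interferon in many cell types, whereas LysM Cre is active in myeloid cells. Lavage cells were plated overnight and only those that adhered were kept. Only the Fra-1 line was labelled as elicited with thioglycollate, an irritant that draws new monocytes into the peritoneal cavity. Mouse line, elicitation label and preparation therefore cannot be told apart in any comparison between the lines. The labels do not say whether the 2 arrays of a group came from separate animals, and p-values measure only the spread between these arrays.

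Coagulation starts when tissue factor (F3) binds factor VII (F7). The pair activates factor X (F10), which, held by its cofactor factor V (F5), makes thrombin. Thrombin turns fibrinogen into fibrin, which factor XIII (F13a1 encodes its A subunit) crosslinks. Thrombomodulin (Thbd) redirects thrombin to activate protein C, an anticoagulant. Fibrin is removed by plasmin, made from plasminogen by urokinase (Plau) on its receptor (Plaur), and plasminogen activator inhibitor 2 (Serpinb2) blocks urokinase. Most clotting factors of plasma come from the liver, but macrophages make several of them, and factor V and factor X transcripts are known from mouse resident peritoneal macrophages. In mice, resident peritoneal macrophages are known to be caught in fibrin clots when the cavity is inflamed.

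Between 47.7% and 57.6% of spots per array were well above background, with the lowest share on the first array labelled Fra-2 knockout. Correlations over features were 0.983 to 0.992 within groups, 0.977 to 0.988 between groups of a line and 0.910 to 0.922 between lines. The macrophage label was checked against 10 general macrophage markers, of which all 10 were tested and 9 were well above background on all 8 arrays. Cd163 was so on 4 arrays. Fosl1 was not well above background on either Fra-1 knockout array (−4.78 and −4.18), against −2.73 and −1.97 on Fra-1 control arrays. This was at least 3.91-fold lower, with a limma adjusted p = 0.364. Fosl2 had 2 probes that differed in direction in the Fra-2 line. The brighter was at 6.43 and 7.14 on the arrays labelled Fra-2 knockout, against 5.51 and 5.57 on Fra-2 control arrays (difference 1.24, limma adjusted p = 0.207). The other, well above background on 4 of 8 arrays, was at −3.96 and −3.82 on arrays labelled Fra-2 knockout, against −2.59 and −2.64 on Fra-2 control arrays (difference −1.27, limma adjusted p = 0.298). Whether either probe lies in the deleted part is not given in the sources used here. The brighter probe therefore showed no loss and the other was lower, but neither settles the label. The group is called by its label throughout.

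AP-1 factors bind the letters TGANTCA, and the promoter windows in which a match was found are printed here because the study removed 2 AP-1 factors. RefSeq (build GRCm38.p6) gave 9 promoter windows for 7 of the 9 genes, each from 250 bases before to 50 bases after a start. Plau and Thbd had no window and were not searched. TGANTCA, searched on both strands, was in 4 of the 9 windows, those of F3, Plaur and Serpinb2, against 7.81% of 32851 mouse promoter windows of the same length. F3 had 2 matches, beginning 146 and 135 bases before the start, and Plaur had 1, beginning 69 bases before the start. The 2 windows of Serpinb2 overlap and share 1 match, which begins 94 bases before the first start. The related letters TGACGTCA were in none of the 9 windows, against 1.79% of all. GAGGAA, the core letters bound by the myeloid factor PU.1, was in 4 of the 9 windows (F7, Plaur and both windows of F13a1), against 28.3% of all. A match is a description of the letters and not a measured binding site. In the 3 windows below, all on the plus strand, capitals mark TGANTCA matches.
F3 promoter, chr3:121723287-121723586: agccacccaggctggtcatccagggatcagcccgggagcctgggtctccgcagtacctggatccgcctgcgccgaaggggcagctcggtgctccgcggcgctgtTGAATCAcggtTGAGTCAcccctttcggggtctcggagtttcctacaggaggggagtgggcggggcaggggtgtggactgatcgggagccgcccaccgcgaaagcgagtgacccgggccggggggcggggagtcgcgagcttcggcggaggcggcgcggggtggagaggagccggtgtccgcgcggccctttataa
Plaur promoter, chr7:24462233-24462532: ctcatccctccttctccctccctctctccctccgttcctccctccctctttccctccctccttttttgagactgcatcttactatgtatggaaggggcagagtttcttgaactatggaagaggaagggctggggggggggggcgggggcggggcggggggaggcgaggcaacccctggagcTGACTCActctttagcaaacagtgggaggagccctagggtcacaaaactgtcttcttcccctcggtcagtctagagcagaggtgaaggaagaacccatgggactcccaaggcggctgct
Serpinb2 promoter, chr1:107511173-107511472: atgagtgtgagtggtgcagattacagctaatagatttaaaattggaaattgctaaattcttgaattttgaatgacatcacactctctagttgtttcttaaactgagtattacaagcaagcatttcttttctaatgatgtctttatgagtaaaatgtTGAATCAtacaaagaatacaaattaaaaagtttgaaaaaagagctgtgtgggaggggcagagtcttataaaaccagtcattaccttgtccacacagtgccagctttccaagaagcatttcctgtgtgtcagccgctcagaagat

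**Figure D1:**
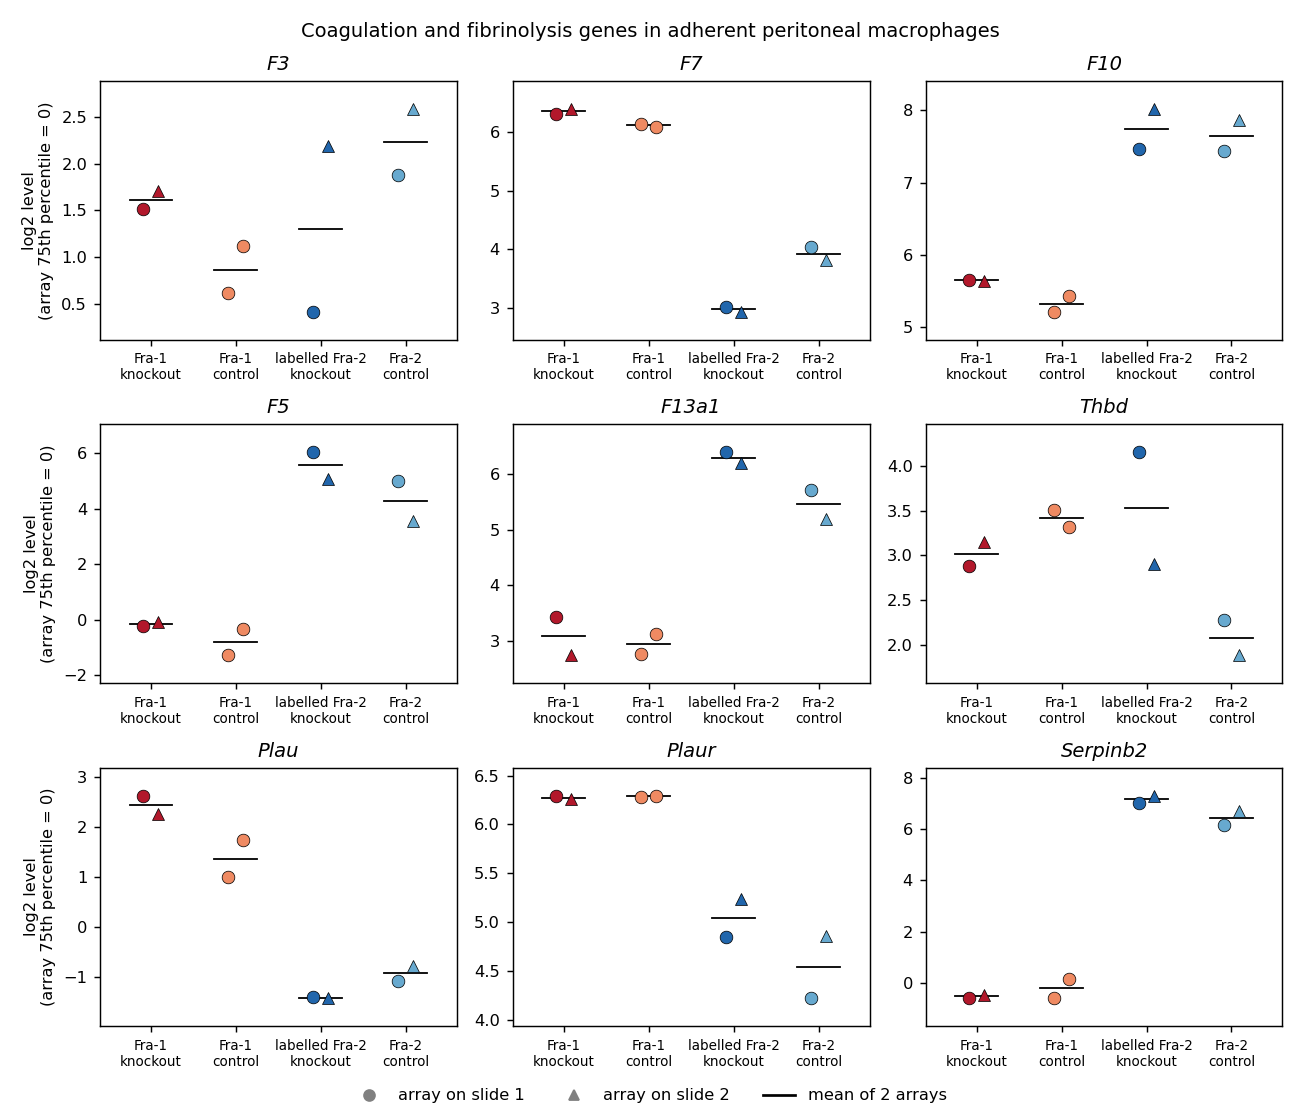
Log2 level of each gene on every array (y axis, array 75th percentile at 0) by group (x axis). Points are arrays, circles on slide 1 and triangles on slide 2, and lines are means of 2 arrays. F7, Plau and Plaur were higher on every array of the Fra-1 line than on any array of the Fra-2 line, and Serpinb2, F5, F10 and F13a1 were lower.

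The control groups of the 2 lines were compared first. On Fra-1 control arrays F7, Plau, Plaur and Thbd were higher than on Fra-2 control arrays, and Serpinb2, F5, F13a1 and F10 were lower. In all, 8 of the 9 genes passed an adjusted p under 0.05 in this comparison by limma, 4 higher and 4 lower, where 36% of all features passed (18.1% higher and 17.9% lower). Arrays of the 2 control groups did not overlap for any of the 9 genes, 4 higher and 5 lower, as for 71.8% of features (34.5% higher and 37.3% lower). The median absolute log2 difference was 2.28 over the 9 genes and 0.46 over all features.

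Tissue factor, the starter of the cascade, did not pass in this comparison. F3 was at 1.52 and 1.71 on Fra-1 knockout arrays, 0.62 and 1.12 on Fra-1 control arrays, 0.42 and 2.19 on arrays labelled Fra-2 knockout, and 1.88 and 2.58 on Fra-2 control arrays. On this brighter probe the 2 arrays labelled Fra-2 knockout were the lowest and the second highest of all 8, and this group overlapped all 3 others. Fra-1 controls minus Fra-2 controls was −1.37 (95% interval −2.78 to 0.05, limma adjusted p = 0.118), and −1.01 within slide 1. The other F3 probe gave −1.61 in a fit of all probes (limma adjusted p = 0.0497), just past the threshold. On that probe the arrays labelled Fra-2 knockout, at −2.75 and −1.20, lay below the Fra-2 controls, at −1.08 and −0.59.

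Factors VII and X, the serine proteases that follow tissue factor, went opposite ways. F7 was at 6.31 and 6.39 on Fra-1 knockout arrays, 6.14 and 6.08 on Fra-1 control arrays, 3.02 and 2.94 on arrays labelled Fra-2 knockout, and 4.04 and 3.81 on Fra-2 control arrays. The Fra-1 knockout arrays were highest and those labelled Fra-2 knockout lowest, with the 2 control groups between them and no overlap of any groups. F7 was 4.54-fold higher in Fra-1 controls than in Fra-2 controls (log2 difference 2.18, SE 0.13, limma adjusted p = 2.36e-04). F10 was at 5.66 and 5.64 on Fra-1 knockout arrays, 5.21 and 5.43 on Fra-1 control arrays, 7.46 and 8.02 on arrays labelled Fra-2 knockout, and 7.43 and 7.87 on Fra-2 control arrays. Within the Fra-2 line the groups overlapped, and every Fra-2 line array lay above every Fra-1 line array. F10 was 5.03-fold lower in Fra-1 controls (log2 difference −2.33, SE 0.24, limma adjusted p = 0.00111). F7 and F10 are adjacent genes on chromosome 8 in RefSeq. Proz, the next gene, encodes protein Z, a cofactor in the inhibition of factor X, and was well above background on no array.

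Factor V, the cofactor of factor X, differed far more. F5 was at −0.22 and −0.08 on Fra-1 knockout arrays, −1.28 and −0.34 on Fra-1 control arrays, 6.04 and 5.09 on arrays labelled Fra-2 knockout, and 5.02 and 3.55 on Fra-2 control arrays. No Fra-1 line array reached the lowest Fra-2 line array. F5 was 34.1-fold lower in Fra-1 controls (log2 difference −5.09, SE 0.58, limma adjusted p = 0.00170), and 1.16% of features had a larger absolute difference. The Fra-2 controls were far apart, and the log2 difference was −5.83 without Fra-2 control 2 and −4.35 without Fra-2 control 1. Selp, the gene next to F5 in RefSeq, encodes the adhesion molecule P-selectin and is a listed marker of large peritoneal macrophages. It was also lower in Fra-1 controls (log2 difference −7.41, limma adjusted p = 2.73e-04).

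F13a1, the fibrin crosslinker, was at 3.42 and 2.74 on Fra-1 knockout arrays, 2.76 and 3.13 on Fra-1 control arrays, 6.39 and 6.20 on arrays labelled Fra-2 knockout, and 5.72 and 5.19 on Fra-2 control arrays. The groups of the Fra-1 line overlapped, and all 4 of their arrays lay below the Fra-2 line. F13a1 was 5.70-fold lower in Fra-1 controls than in Fra-2 controls (log2 difference −2.51, SE 0.30, limma adjusted p = 0.00184). Thrombomodulin, the anticoagulant receptor, had the smallest called difference. Thbd was at 2.88 and 3.14 on Fra-1 knockout arrays, 3.51 and 3.32 on Fra-1 control arrays, 4.15 and 2.90 on arrays labelled Fra-2 knockout, and 2.27 and 1.89 on Fra-2 control arrays. The arrays labelled Fra-2 knockout overlapped the range of both Fra-1 line groups, and the Fra-2 controls were below all others. Thbd was 2.52-fold higher in Fra-1 controls than in Fra-2 controls (log2 difference 1.33, SE 0.40, limma adjusted p = 0.0463). This call was lost in 11 of 19 alternatives, among them each omission of a control array (1.14 to 1.53, adjusted p 0.0926 to 0.175) or of a Fra-1 knockout array (adjusted p = 0.0758). With 4 arrays per line it was 0.41 (limma adjusted p = 0.268).

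The genes of plasmin formation were divided too, with the activator and its receptor higher and the inhibitor lower in the Fra-1 controls. Plau was at 2.62 and 2.25 on Fra-1 knockout arrays, 0.99 and 1.73 on Fra-1 control arrays, −1.40 and −1.43 on arrays labelled Fra-2 knockout, and −1.07 and −0.78 on Fra-2 control arrays. Its 4 groups did not overlap. Plau was 4.87-fold higher in Fra-1 controls than in Fra-2 controls (log2 difference 2.28, SE 0.27, limma adjusted p = 0.00198).

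The urokinase receptor was nearly even within the Fra-1 line. Plaur was at 6.30 and 6.26 on Fra-1 knockout arrays, 6.29 and 6.29 on Fra-1 control arrays, 4.84 and 5.24 on arrays labelled Fra-2 knockout, and 4.22 and 4.86 on Fra-2 control arrays. Groups of the same line overlapped and the lines did not. Plaur was 3.36-fold higher in Fra-1 controls (log2 difference 1.75, SE 0.24, limma adjusted p = 0.00315).

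Serpinb2 had the widest difference of the 9. It was at −0.58 and −0.45 on Fra-1 knockout arrays, −0.60 and 0.17 on Fra-1 control arrays, 7.01 and 7.30 on arrays labelled Fra-2 knockout, and 6.15 and 6.70 on Fra-2 control arrays. The Fra-1 line arrays lay in a narrow low range and the Fra-2 line arrays far above it. Serpinb2 was 99.5-fold lower in Fra-1 controls than in Fra-2 controls (log2 difference −6.64, SE 0.30, limma adjusted p = 1.41e-04), and 0.288% of features had a larger absolute difference.

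Slide 1 held 5 arrays, among them both Fra-1 controls and Fra-2 control 1, and slide 2 held 3. Within slide 1 the log2 difference between controls was −6.36 for Serpinb2, −5.83 for F5, −2.78 for F13a1, −2.11 for F10, 2.07 for F7, 2.07 for Plaur, 2.43 for Plau and 1.14 for Thbd. With slide as a term in the limma fit, the differences were −6.48, −5.47, −2.74, −2.17, 2.15, 1.92 and 2.27 for the first 7 of these genes, which were all called. Thbd lost its call in that fit (limma adjusted p = 0.0915). Taking all 4 arrays of each line, 7 of the 9 genes did not overlap between lines, the exceptions being F3 and Thbd, where 51.1% of features did not overlap.

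**Figure D2:**
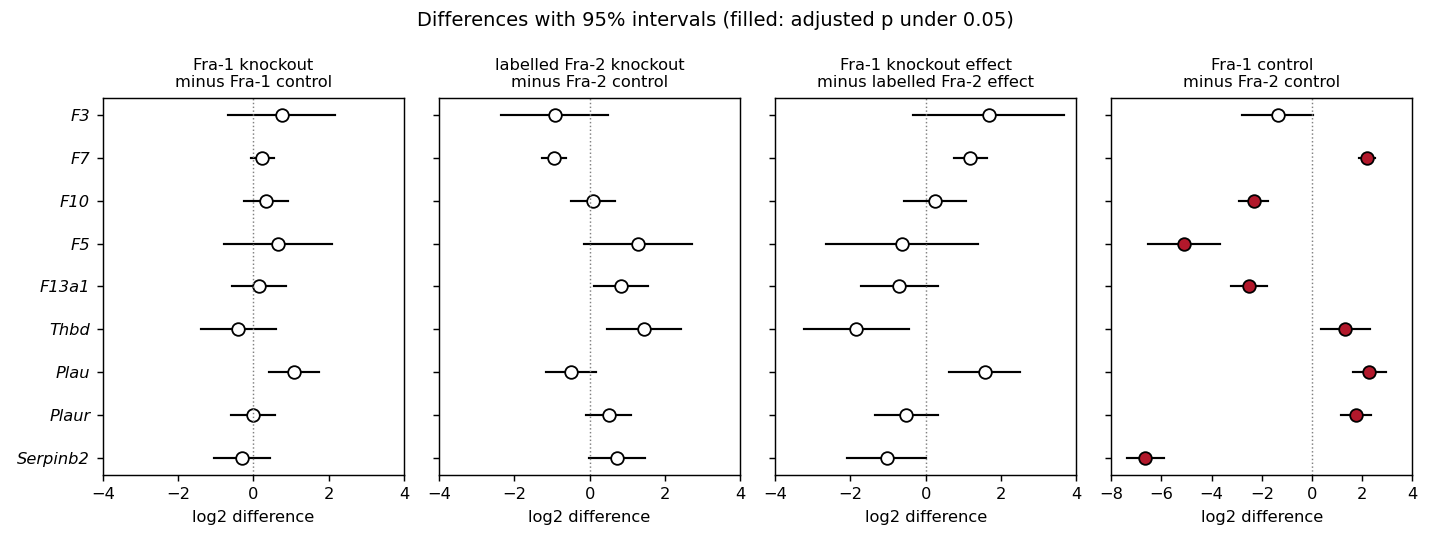
Log2 differences (x axes) with 95% intervals from limma for the 9 genes (y axis) in 4 comparisons, filled where the adjusted p was under 0.05. Of the 9 genes, 8 are filled between control groups, from −6.64 for Serpinb2 to 2.28 for Plau, and none is filled in the 3 other panels, whose axes are narrower.

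The cell type markers of the control groups also differed. Counts of higher and lower markers in this comparison are calls at a limma adjusted p under 0.05. Of all features, 36% were called there (18.1% higher and 17.9% lower). Of the 10 general macrophage markers, 7 were lower in Fra-1 controls and 1 higher (median −1.33). Among them were Cd163 (−7.92), Cd14 (−3.94) and Csf1r (−2.31) on the lower side and Cd68 (1.93) on the higher. Cd163 was at −7.12 and −7.07 on Fra-1 control arrays, where the lowest signals well above background were −4.95 and −4.98. Its difference therefore includes background. The summed level of the 10 markers was 966 to 1218 in Fra-1 controls and 1344 to 1521 in Fra-2 controls. Of 11 tested markers of large peritoneal macrophages, the resident cells of the cavity, 9 were lower in Fra-1 controls. Gata6 (−0.47, limma adjusted p = 0.345) and Rarb (0.53, limma adjusted p = 0.134) were not called. The summed level of the 11 markers (array 75th percentile as 1, as for all lists) was 16.8 to 17.2 in Fra-1 controls and 284 to 435 in Fra-2 controls. Markers of monocyte-derived peritoneal macrophages were divided, 3 higher and 3 lower of 8 tested, with summed levels of 199 to 304 and 58.1 to 101. Mast cell markers summed to 2.37 to 2.89 in Fra-1 controls and 48.6 to 143 in Fra-2 controls, with 8 of 8 tested lower in Fra-1 controls. B cell markers summed to 1.44 to 3.41 and 38.5 to 81.0, with 6 of 6 lower. Fibroblast markers summed to 267 to 371 in Fra-1 controls and 4.35 to 8.69 in Fra-2 controls, with 8 of 9 tested higher, and mesothelial markers to 11.7 to 17.2 and 1.48 to 1.61, with 8 of 9 higher. Of the tested markers, 4 of 9 fibroblast, 5 of 9 mesothelial, 6 of 8 mast cell and 4 of 6 B cell ones were well above background on all 8 arrays. So were 9 of 11 large peritoneal macrophage markers. The others, such as Pdgfra, Bnc1 and Timd4 (4 of 8 arrays each), could pass the filter through the line where they were high. Their differences can include background, and their direction is no separate support. The part of these cells in the differences of the 9 genes was not tested, and in bulk samples fewer cells of a type and less RNA per cell cannot be told apart.

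Sources of plasma clotting factors were also measured. Hepatocyte markers summed to 0.48 to 0.63 in Fra-1 controls and 0.70 to 0.76 in Fra-2 controls, and Alb, Apoa1, Ttr, Apoh, Ahsg and Fgb were well above background on no array. Endothelial markers summed to 7.23 to 7.98 in Fra-1 controls and 8.40 to 10.8 in Fra-2 controls. Of the 10 listed, Kdr, Pecam1 and Egfl7 were well above background on all 8 arrays, and Tek, Emcn, Cldn5 and Robo4 on none. Platelets are known to carry factor V and factor XIII. Platelet and megakaryocyte markers summed to 12.9 to 14.0 in Fra-1 controls and 6.20 to 8.78 in Fra-2 controls. Of the 10 tested, Itgb3 was called higher in Fra-1 controls (3.68), and 4 were called lower, Ppbp (−6.69), Gp1ba (−4.95), Gp6 (−2.75) and Itga2b (−2.57). Of all features, 18.1% were called higher and 17.9% lower. Ppbp, Gp1ba and Itga2b were well above background on 4 of 8 arrays and Gp6 on 5, so these 4 differences include background. Gp9 was well above background on no array. The part of platelets or endothelium in F5 and F13a1 was not tested.

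**Figure D3:**
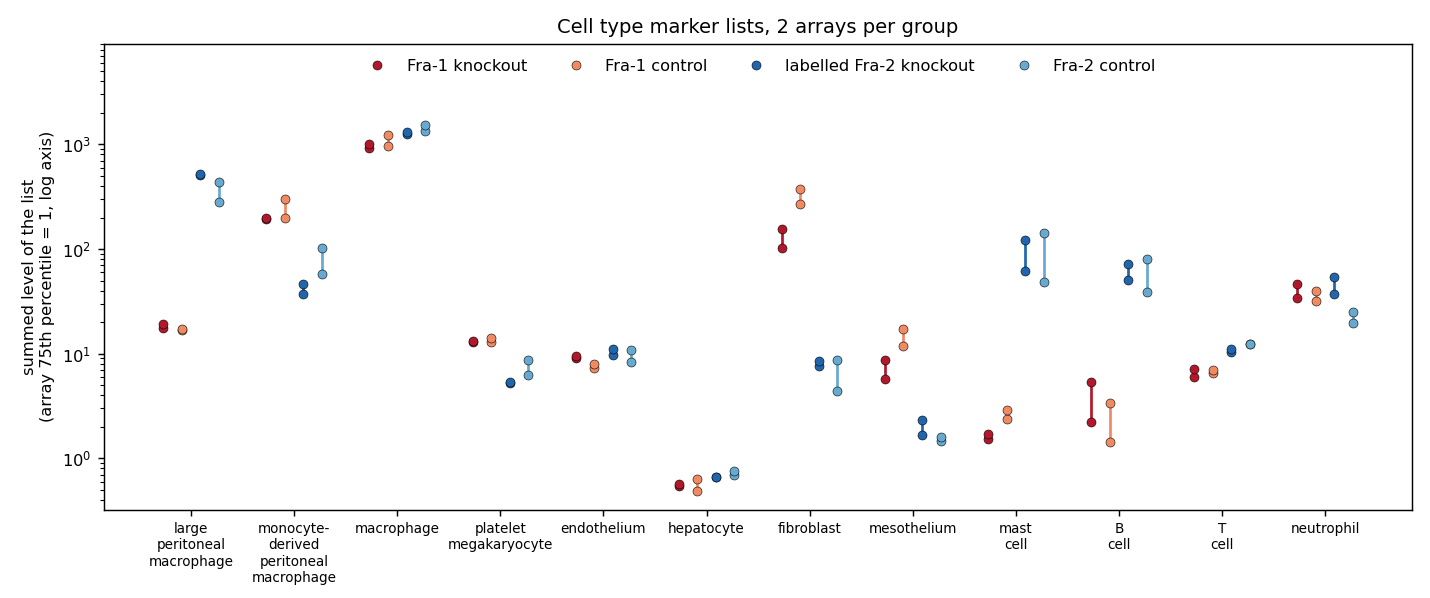
Summed level of each cell type marker list (y axis, log scale, array 75th percentile as 1) on the 2 arrays of each group (x axis, lists). Large peritoneal macrophage markers sum to 16.8 to 19.2 on Fra-1 line arrays and 284 to 522 on Fra-2 line arrays, and general macrophage markers to 931 to 1218 and 1252 to 1521.

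The loss of Fra-1 was asked about by setting Fra-1 knockout arrays against Fra-1 control arrays. None of the 9 genes passed limma's adjusted p, where 0.0131% of features (3 of 22910) did, and 1 of 9 had an unadjusted p under 0.05, where 8.84% of features did. Plau was that gene, at 2.62 and 2.25 in knockouts and 0.99 and 1.73 in controls, with no overlap. Its log2 difference was 1.08 (95% interval 0.41 to 1.75, 2.11-fold, limma adjusted p = 0.372). It was 1.26 within slide 1 and 1.09 with slide as a term (limma adjusted p = 0.496). Leaving out single arrays of the line moved it between 0.71 (first control omitted) and 1.44 (second control omitted).

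The clotting factors had positive differences on these arrays, none of them called. F3 differed by 0.75 (interval −0.67 to 2.16), F5 by 0.66 (−0.77 to 2.09), F10 by 0.33 (−0.25 to 0.91), F7 by 0.24 (−0.08 to 0.55) and F13a1 by 0.14 (−0.58 to 0.86), with adjusted p of 0.650 to 0.915 in limma. Thbd differed by −0.40 (−1.39 to 0.59), Serpinb2 by −0.30 (−1.05 to 0.44) and Plaur by −0.01 (−0.60 to 0.58). The intervals do not exclude changes in either direction for any of these 8 genes. The median was 0.24 over the 9 genes and 0.03 over all features, and knockout and control arrays did not overlap for 6 of the 9 (5 higher and 1 lower), as for 46.4% of features (27.6% higher and 18.7% lower). Fibroblast markers summed to 102 to 155 in Fra-1 knockouts and 267 to 371 in Fra-1 controls. Other lower sums without overlap were those of mesothelial (5.78 to 8.61 against 11.7 to 17.2), mast cell (1.54 to 1.70 against 2.37 to 2.89) and monocyte-derived macrophage markers (194 to 197 against 199 to 304). Of the tested markers, 1 of 9 mesothelial, 1 of 8 mast cell and 5 of 8 monocyte-derived ones were higher in knockouts. The monocyte-derived list thus had a lower sum but a positive median (0.24). Large peritoneal macrophage (17.6 to 19.2 against 16.8 to 17.2) and endothelial markers (9.06 to 9.52 against 7.23 to 7.98) had higher sums, and the other 6 lists overlapped. In the large peritoneal macrophage list 8 of 11 tested markers were higher in knockouts. Only 1 of 4 tested endothelial markers was higher (median −0.10), so that sum does not speak for its list. The part of these cells was not tested.

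In the Fra-2 line, the arrays labelled knockout were set against those of their floxed littermates. None of the 9 genes passed limma's adjusted p, where 0.00873% of features (2 of 22910) did, and 3 of 9 had an unadjusted p under 0.05, where 8.81% of features did. The 3 were F7, Thbd and F13a1. F7 was at 3.02 and 2.94 on arrays labelled knockout and 4.04 and 3.81 on controls, with no overlap and little spread. Its log2 difference was −0.95 (95% interval −1.26 to −0.63, 1.93-fold, limma adjusted p = 0.113), with −1.02 within slide 1 and −0.87 within slide 2. The other F7 probe gave −1.03 in the fit of all probes (limma adjusted p = 0.125). F7 passed the threshold in 2 alternatives, normexp background correction (adjusted p = 0.0487) and a trended prior (adjusted p = 0.0399), and its adjusted p was 0.0747 to 0.618 in the others and 0.165 with slide as a term.

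Thbd was at 4.15 and 2.90 on arrays labelled knockout and 2.27 and 1.89 on Fra-2 controls. The first array stood well above the second, and the log2 difference of 1.45 (95% interval 0.46 to 2.43, limma adjusted p = 0.360) was 1.88 within slide 1 and 1.01 within slide 2. It was 0.82 without the first array labelled knockout and 2.07 without the second. F13a1 differed by 0.84 (0.12 to 1.56, limma adjusted p = 0.495), and its other probe by 0.78. F5 differed by 1.28 (−0.15 to 2.71), Serpinb2 by 0.73 (−0.01 to 1.48) and Plaur by 0.50 (−0.09 to 1.09), with limma adjusted p of 0.573 to 0.638. Plau differed by −0.49 (−1.16 to 0.18), F3 by −0.93 (−2.35 to 0.49) and F10 by 0.09 (−0.49 to 0.67). F3 was −1.46 within slide 1 and −0.40 within slide 2. The other F3 probe gave −1.14 in the fit of all probes (limma adjusted p = 0.601), without the overlap seen on the brighter probe. The median was 0.50 over the 9 genes and −0.03 over all features, and arrays did not overlap for 6 of the 9 (4 higher and 2 lower), as for 35.1% of features (15% higher and 20.1% lower). Large peritoneal macrophage markers summed to 507 to 522 on arrays labelled knockout and 284 to 435 on Fra-2 controls, and neutrophil markers to 37.3 to 54.2 and 19.7 to 24.8. Lower sums without overlap were those of monocyte-derived macrophage markers (37.3 to 46.1 against 58.1 to 101), platelet markers (5.29 to 5.41 against 6.20 to 8.78), hepatocyte markers (0.66 to 0.67 against 0.70 to 0.76) and general macrophage markers (1252 to 1299 against 1344 to 1521), and T cell markers were likewise lower. Mesothelial markers were higher (1.66 to 2.35 against 1.48 to 1.61), and the other 4 lists overlapped. Single markers did not all follow their sums. In lists with lower sums, 3 of 4 tested hepatocyte, 4 of 8 monocyte-derived and 4 of 10 platelet markers were higher on arrays labelled knockout. So were 2 of 10 general macrophage and 1 of 7 T cell markers. In lists with higher sums, 8 of 11 large peritoneal macrophage, 6 of 9 neutrophil and 8 of 9 mesothelial markers were higher. The part of these cells was not tested.

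The difference of the 2 effects, Fra-1 minus labelled Fra-2, was called for none of the 9 genes in limma, where 0.00436% of features (1 of 22910) passed. An unadjusted p under 0.05 was found for 3 of the 9, where 9.56% of features had one. F7 differed by 1.18 (95% interval 0.74 to 1.63, limma adjusted p = 0.187), with an effect of 0.24 in the Fra-1 line and −0.95 in the Fra-2 line. Plau differed by 1.56 (0.62 to 2.51, adjusted p = 0.330), with effects of 1.08 and −0.49. Thbd differed by −1.85 (−3.24 to −0.45, adjusted p = 0.415), with effects of −0.40 and 1.45. For these 3 genes the effects thus had opposite signs, with the difference not past the threshold. The other 6 genes had limma adjusted p of 0.526 to 0.838. Opposite signs were not particular to F7, Plau and Thbd. F3 (0.75 and −0.93), Serpinb2 (−0.30 and 0.73) and Plaur (−0.01 and 0.50) had them as well, whereas F5, F10 and F13a1 did not.

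**Figure D4:**
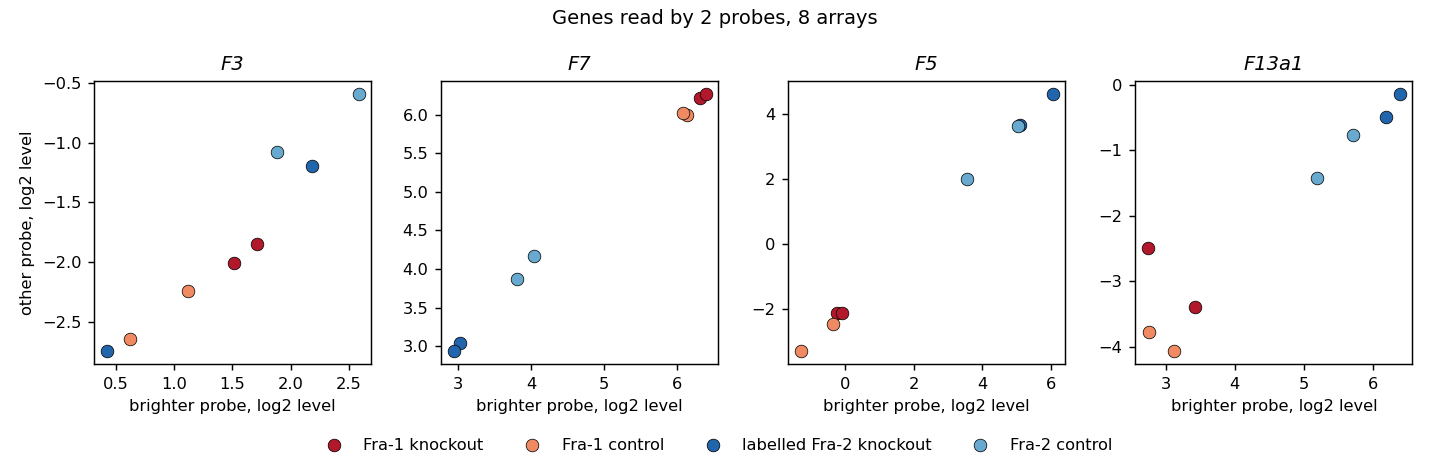
Log2 level of the brighter probe (x axis) against the other probe (y axis) on 8 arrays for the 4 genes read by 2 probes, coloured by group. Both probes of F3, F7, F5 and F13a1 order the 4 group means alike. Single arrays of the Fra-1 line are ordered differently by the 2 probes of F13a1 and, over a narrow range, of F7.

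Where 2 probes read a gene, both gave the same direction between control groups. The other probe of F5 gave −5.72, that of F13a1 −2.82 and that of F7 1.98. The F13a1 probes disagreed in the Fra-1 knockout comparison. The brighter gave 0.14 and the other 0.97 (unadjusted p = 0.0355, limma adjusted p = 0.545), at −3.40 and −2.50 on Fra-1 knockout arrays and −3.78 and −4.07 on Fra-1 control arrays.

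Of 47 other genes of coagulation and fibrinolysis that were listed, all were on the array and 29 were tested. The remaining 18 were not well above background in any whole group, and 12 of them were so on no array, among them prothrombin (F2), factor VIII (F8), factor XII (F12) and the fibrinogen chains Fga, Fgb and Fgg. Between control groups 18 of the 29 were called, 11 higher in Fra-1 controls and 7 lower, where 36% of all features were called (18.1% higher and 17.9% lower), with a median of 0.10 over the 29 and −0.03 over all features. Vwf, the carrier of factor VIII that platelets bind, was at 4.48 and 4.15 in Fra-1 controls, against −1.32 and −1.03 in Fra-2 controls (log2 difference 5.49, SE 0.18, limma adjusted p = 7.84e-05). The 2 Fra-1 knockout arrays were at 4.21 and 4.48, as high as their controls.

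Of 5 listed plasminogen receptors, 3 were called higher in Fra-1 controls and 2 lower, and of 7 tested anticoagulants 2 were called higher and 3 lower. Of all features, 18.1% were called higher and 17.9% lower, and sets this small do not describe a class. Anxa2, which holds plasminogen and its activator at the cell surface, differed by 2.53 (limma adjusted p = 5.60e-04). Gas6, a vitamin K-dependent ligand of TAM receptors, differed by 2.14, and Anxa5, which covers the phospholipid that clotting factors need, by 2.04. On the lower side, Pros1 (protein S, cofactor of activated protein C) differed by −1.60, Serpinc1 (antithrombin) by −1.28, Serpina10 (the protein Z-dependent inhibitor) by −1.14 and Tgm2 (a transglutaminase related to factor XIII) by −0.94. Limma adjusted p of these 7 genes was at most 0.0396.

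In the knockout comparisons none of the 29 was called by limma, with 5 at an unadjusted p under 0.05 in the Fra-1 line and 8 in the Fra-2 line, against 8.84% and 8.81% of all features. The smallest p in both belonged to Proc, protein C, which thrombomodulin helps thrombin activate. Proc was well above background on 2 of 8 arrays, at −5.92 and −6.04 on Fra-1 knockout arrays and −4.56 and −4.53 on Fra-1 control arrays, and its fitted difference of −1.44 (adjusted p = 0.114) includes background. In the Fra-2 line Proc was well above background on no array, so its place there ranks background and no difference is given. F2r, the thrombin receptor, was at −1.87 and −2.46 on Fra-1 knockout arrays and −0.49 and 0.27 on Fra-1 control arrays (difference −2.05, adjusted p = 0.321). Plat, the tissue plasminogen activator, differed by −1.65 (adjusted p = 0.531) and Mcfd2, which carries factors V and VIII out of the endoplasmic reticulum, by 0.40 (adjusted p = 0.428). In the Fra-2 line Serpinc1 differed by −0.83, S100a10, the partner of Anxa2, by −0.41 and Mcfd2 by −0.34, with adjusted p of 0.341 to 0.471. The difference of effects was called for none of the 29, with the smallest p for Mcfd2 (0.74, adjusted p = 0.287), S100a10 (0.67), Serpinc1 (1.05) and F2r (−1.56).

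For each gene, the 3 named genes of 13642 with the most similar pattern over the 8 arrays were found by the root mean square difference of centred log2 levels. The pattern includes the difference between lines, and the measure is a description. F10 was closest to Pid1, Ctsc and Gbe1 (0.10 to 0.11), F7 to Ryr1, Gsn and Rab7b (0.12 to 0.17) and F13a1 to Icosl, Pde3b and Kmo (0.19 to 0.26). F3 was closest to Acat3, Pgk1 and Ero1a (0.22 to 0.26), and F5 to Prtn3, Pgap4 and Adcy4 (0.37 to 0.49). Thbd was closest to Pdcd4, Dpysl4 and Ccdc172 (0.16 to 0.21), Plau to Zranb3, Hilpda and Npas4 (0.22 to 0.27), Plaur to Slc15a3, Slc25a13 and Urah (0.15 to 0.18), and Serpinb2 to Cfb, Smpdl3b and Edil3 (0.30 to 0.40). F5 and Serpinb2, with the widest differences between lines, had the least close neighbours.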

How the data were processed

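The scanner files of 8 arrays, hybridised with Cy3-labelled cRNA from 50 ng total RNA, came from Feature Extraction 11.5.1.1. The headers name the protocol GE1_1105_Oct12 and build mm9. The deposited processed signals are, per the file headers, linear intensities after background subtraction, and other deposited columns flag spots as 0 or 1 for background, saturation and outliers. The submitters' value table holds deposited log2 values, found here to be centred on each probe's median (correlation of at least 0.99999 with centred scanner values).

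Control spots and spots flagged as outliers were left out, spots of a probe were averaged, and log2 of the signal minus the array's 75th percentile was taken (percentile signals 315 to 470). Probes well above background throughout at least 1 group and measured on all arrays were kept (30819 probes). Probes were named by accession through RefSeq, and the brightest probe stood for a gene. Means of the 4 groups were fitted with limma 3.58.1 (R 4.3.3; residual degrees of freedom 4, prior 1.99). P-values were adjusted by the Benjamini-Hochberg method over 22910 features within each of 4 comparisons, and a call is an adjusted p under 0.05. Fold bounds were set against the lowest signal well above background. With 2 arrays per group, the number of arrays limits precision.

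Members and lists were chosen with earlier results of these data known. All 9 members, Fosl1 and Fosl2 are named. Of the wider list, up to 4 called genes with the largest non-overlapping change in each direction are named, or, with fewer than 2 calls, the 4 with the lowest p. The genes counted as not detected were named after their values were seen, as were Selp and the single cell type markers. Alternatives were quantile normalization, normexp (offset 50), the submitters' value table, detection on all 8 arrays or none required, averaged probes, slide as a term, only the groups compared, a common floor, a trended prior, both groups of a line together, and leaving out each array. The fit was tested on simulated data. Python 3.11.15 and matplotlib 3.10.9 drew the figures.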

Additional observations from a re-analysis of the deposited data

How the results depend on the processing

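Over 19 alternatives, 141 of 152 values of the 8 called differences between control groups kept their direction and call, and the 11 that lost the call were all of Thbd. F3 passed in that comparison with only the groups compared (adjusted p = 0.0414) and without either array labelled Fra-2 knockout (adjusted p = 0.0207). The count of called members there ran from 7 to 9, and of called features from 5590 to 12315. No member was called in the Fra-1 comparison or in the difference of effects under any alternative run, and in the labelled Fra-2 comparison 1 (F7) was called with normexp and 1 with a trended prior. The few features called in the knockout comparisons varied. In the Fra-1 comparison (3 called) there were 21 with quantile normalization and 21 with a common floor, 1 with only the groups compared, and 0 with normexp, no filter, the filter on all 8 arrays, slide as a term or a trended prior, and 0 to 18 when single arrays were left out. In the labelled Fra-2 comparison (2 called) there were 14 with quantile normalization, 19 with normexp, 4 with the filter on all 8 arrays, 8 with a common floor, 57 with a trended prior, and 0 with no filter, slide as a term or only the groups compared, and 0 to 46 when single arrays were left out. The difference of effects (1 called) gave 10 with quantile normalization, 0 with normexp, no filter, the filter on all 8 arrays, slide as a term or a trended prior, and 0 to 27 when single arrays were left out. The cause was not tested. Signs turned only for uncalled members. In the Fra-1 comparison Plaur was 0.069 with normexp. When single arrays were left out, Plaur there ran from −0.032 to 0.0074, F13a1 from −0.20 to 0.48 and Serpinb2 from −0.68 to 0.080. In the labelled Fra-2 comparison F10 ran from −0.19 to 0.37. For the difference of effects F10 ran from −0.037 to 0.52 and F5 from −1.36 to 0.11. A group left with 1 array was assumed to vary like the other groups. No paired analysis was possible because the labels share no replicate number between groups. Slide, which in the Fra-2 line held 1 array of each group, was fitted as a term instead, as reported.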
